A study of Mus musculus with 31 samples.

Results

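Mitosis genes encode the proteins that carry a cell from the end of G2 phase through chromosome segregation and the splitting of the cell. The set described here comprised 38 such genes, chosen by symbol from their roles, at a time when earlier results of these data were known. Of the 38, 37 had a probe set that carried their symbol alone, out of 18194 genes measured in the series. No probe set of the table carried the symbol of Ccnb1, the gene of cyclin B1, so it has no value. Where several probe sets carried a gene's symbol alone, the one of greatest mean across the 31 arrays was read, and all values are RMA log2 intensities, a scale on which 1 unit is a 2-fold change. Levels of different genes come from different probe sets and were not set against each other.

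The samples fell into 4 kinds, all of C57BL/6 background. Neural stem cells (NSC) were grown as neurospheres, floating clusters kept in EGF and FGF2, from wild-type mice at postnatal day 7, with 3 cultures each from the forebrain's subventricular zone (SVZ), the region of the IV ventricle and the cerebellar white matter. The last pair of regions are the hindbrain NSC (n = 6). Medulloblastoma cultures, called cancer stem cells in the labels and grown the same way, came from 8 tumours of mice with 1 altered Ptch allele and normal p53 (the p53 wild-type lines), each with the matched tumour tissue. The p53 heterozygous cultures came from only 2 tumours, 27 and B, of mice heterozygous for Ptch and for p53, with 3 technical arrays each that were averaged. Neurospheres were collected 3 to 5 days after plating. The labels call the NSC cultures biological replicates but do not say that they came from separate animals, so p-values measure the spread between these samples, which may be technical in part.

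Entry into mitosis is driven by cyclin A and cyclin B bound to the kinase Cdk1, helped by the Polo and Aurora kinases. The spindle assembly checkpoint holds cells until every kinetochore is attached, after which the anaphase-promoting complex marks its targets for destruction, the sister chromatids part and a contractile ring divides the cell. Transcripts of these proteins rise together late in the cell cycle, under the transcription factor Foxm1 and the MuvB complexes, of which one repressing form is called DREAM and one activating form contains B-Myb. In the postnatal cerebellum Sonic hedgehog keeps granule neuron precursors dividing, and loss of its receptor Ptch1 leaves that signal on.

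Promoters of many late cell cycle genes are known to carry the cell cycle genes homology region (CHR), through which MuvB complexes bind, near CCAAT boxes, bound by NF-Y. Of the 38 genes, 32 had a promoter in the RefSeq table (build GRCm38.p6, 250 bases before to 50 after the annotated start), and Tpx2, Foxm1, Pbk, Aurkb, Ccna2 and Kif20a had none there. The CHR letters TTTGAA or TTCGAA, on either strand, lay in 26 of these 32 windows (81.2%), against 19.4% of the 27025 genes in the table, and in 2175 of the 14453 of those that the arrays also measured. The letters CCAAT, on either strand, lay in 27 of 32 (84.4%), against 37.9% of all in the table and 38.2% of those measured. At least 2 CCAAT matches were found in 20 (62.5%), against 12.2% and 13.5%, and CHR with CCAAT in 24 of 32, against 7.7% and 6.13%. These are matches of letters and do not show that a factor binds there. The 6 promoters printed are those of the genes whose level was raised most in lines over tissue among the genes with CHR letters in the 170 bases before to 30 after the start. Capitals mark the CHR letters and the CCAAT letters on either strand (ATTGG is CCAAT on the other strand). The windows are chr11:40733408-40733607 (minus strand), chr7:80294281-80294480 (plus strand), chr4:124936888-124937087 (minus strand), chrX:100625895-100626094 (plus strand), chr2:164769759-164769958 (plus strand) and chr4:118437314-118437513 (minus strand), in the order printed, each 5′ to 3′ in the direction of its gene.
Hmmr: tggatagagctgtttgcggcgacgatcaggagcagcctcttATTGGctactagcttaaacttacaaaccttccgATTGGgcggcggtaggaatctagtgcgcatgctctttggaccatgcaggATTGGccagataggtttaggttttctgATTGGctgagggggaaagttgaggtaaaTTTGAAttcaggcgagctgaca
Prc1: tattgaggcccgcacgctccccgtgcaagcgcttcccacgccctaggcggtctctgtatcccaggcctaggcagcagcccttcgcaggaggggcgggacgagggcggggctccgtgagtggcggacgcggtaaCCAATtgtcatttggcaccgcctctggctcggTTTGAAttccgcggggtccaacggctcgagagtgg
Cdca8: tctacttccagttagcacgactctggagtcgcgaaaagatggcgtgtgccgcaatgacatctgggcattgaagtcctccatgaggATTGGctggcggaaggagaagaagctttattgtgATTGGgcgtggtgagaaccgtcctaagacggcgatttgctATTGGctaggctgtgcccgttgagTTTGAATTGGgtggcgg
Kif4: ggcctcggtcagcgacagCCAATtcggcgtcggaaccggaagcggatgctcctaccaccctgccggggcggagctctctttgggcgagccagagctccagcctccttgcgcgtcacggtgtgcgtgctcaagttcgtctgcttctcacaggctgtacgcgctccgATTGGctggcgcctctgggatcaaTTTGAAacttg
Ube2c: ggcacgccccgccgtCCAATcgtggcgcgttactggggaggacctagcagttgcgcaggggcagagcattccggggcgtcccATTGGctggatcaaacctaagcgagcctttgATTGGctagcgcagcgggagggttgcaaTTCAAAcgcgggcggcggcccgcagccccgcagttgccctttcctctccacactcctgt
Cdc20: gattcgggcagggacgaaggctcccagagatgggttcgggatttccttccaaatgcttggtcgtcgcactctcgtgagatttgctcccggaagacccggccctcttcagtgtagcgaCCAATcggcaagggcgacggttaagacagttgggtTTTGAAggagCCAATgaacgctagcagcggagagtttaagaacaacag

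The CHR letters stood close to the annotated start in all 6 windows. In Ube2c and Cdc20 they began 29 and 18 bases before it, in Prc1 they ran across it, and in Hmmr, Cdca8 and Kif4 they began 9, 14 and 20 bases past it. In Cdca8 the CHR letters overlapped a CCAAT match on the other strand by their last letter. Among all members with CHR letters, 12 had a match upstream of the start, among them Cdk1, Top2a, Mki67 and Kif11.

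Array medians of the 31 arrays lay between 3.166 and 3.324. Ptch1 ranged from 5.72 to 7.75 in the lines, from 5.75 to 7.58 in the p53 heterozygous cultures, from 7.67 to 9.02 in tissue and from 7.99 to 8.62 in hindbrain NSC. The position of its probes against the altered stretch of the allele is not known here, so this is no check of the genotype. A date mark in the labels differed between the NSC, the lines with their tissues and the p53 heterozygous cultures, so date mark and group cannot be told apart in comparisons between these. Neural stem cell markers (10 genes) had a mean log2 level of 8.43 to 8.78 in hindbrain NSC and of 8.14 to 8.89 in the lines.

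**Figure D1:**
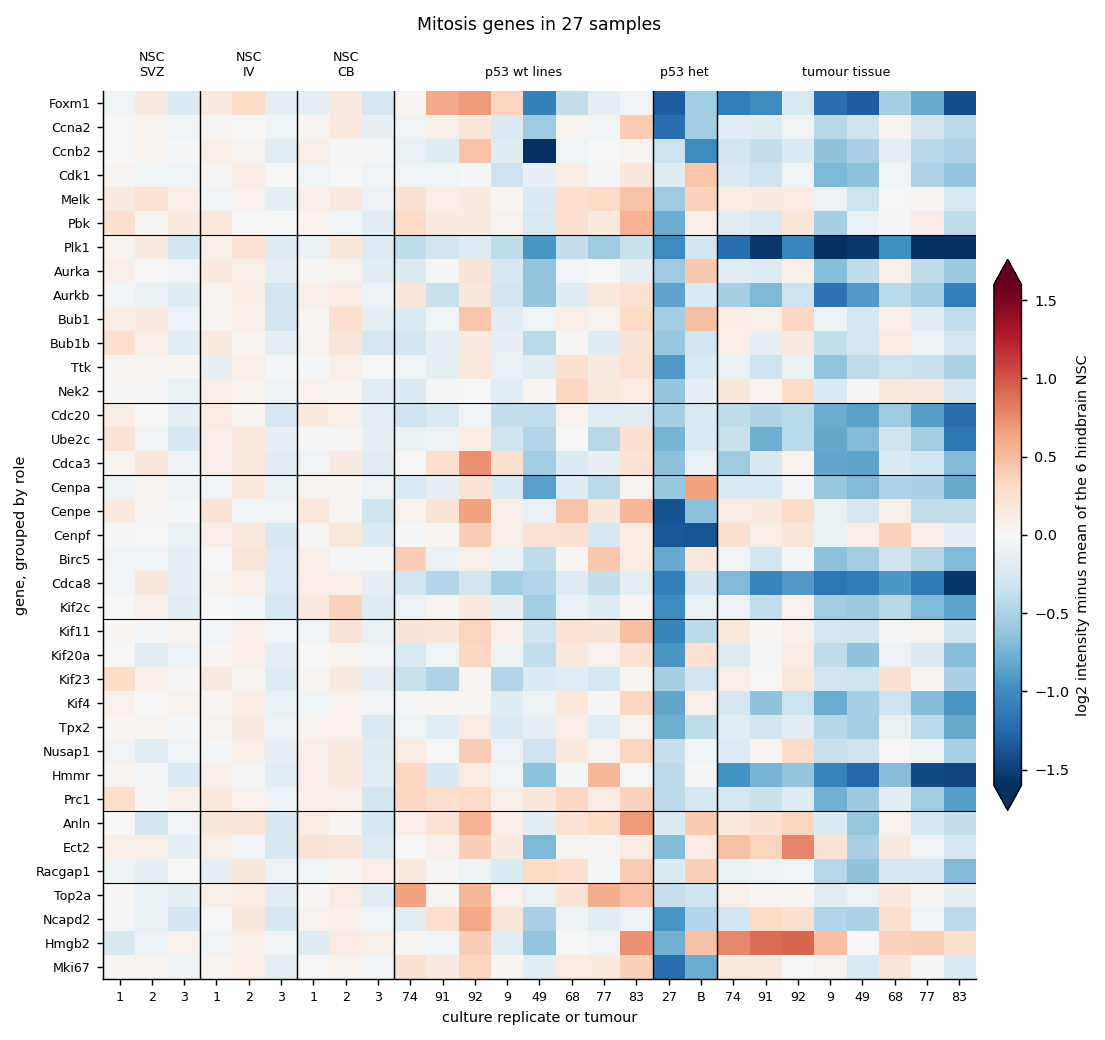
Log2 intensity of 37 mitosis genes (rows, grouped by role) in 27 samples (columns), each as the difference from the mean of the 6 hindbrain NSC cultures; red is higher and blue lower. Tumour 27 is blue in every row, from -1.4 to -0.19, and the Plk1 row is blue in all 8 tissues.

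No mitosis gene passed the test between the stem cells of the 3 regions. Mki67, which encodes the Ki-67 protein that coats mitotic chromosomes, averaged 9.94 ± 0.13 (SD, n = 3; 9.79 to 10.05) in IV ventricle cultures, 9.95 ± 0.05 (n = 3; lowest 9.90, median 9.96) in cerebellar cultures and 9.95 ± 0.07 (n = 3; lowest 9.87, median 9.98) in SVZ cultures. The kinase gene Plk1 was 8.33, 8.47 and 8.05 in IV ventricle cultures, 8.13, 8.42 and 8.04 in cerebellar cultures and 8.30, 8.38 and 7.94 in SVZ cultures. The regions overlapped in both genes. In the limma fit of the 9 NSC cultures (two-sided, adjusted over all 18194 genes), 0 of 37 mitosis genes were called between IV ventricle and cerebellar NSC, between IV ventricle and SVZ NSC, or between cerebellar and SVZ NSC, and 0 had an unadjusted p under 0.05 in any of the 3. Over all genes, 0.0% were called higher and 0.0% lower between IV ventricle and cerebellar NSC (559 genes had an unadjusted p under 0.05), 0.352% higher and 0.412% lower between IV ventricle and SVZ NSC, and 0.572% higher and 0.533% lower between cerebellar and SVZ NSC.

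The differences between regions ran from -0.21 to 0.19, from -0.20 to 0.15 and from -0.20 to 0.16 in these 3 comparisons. The end points were Kif2c (a kinesin that takes microtubules apart) and Foxm1 between IV ventricle and cerebellar NSC, with adjusted p of 1.0 for both. Melk, a kinase gene of dividing progenitors, was 7.36, 7.48 and 7.26 in IV ventricle cultures and 7.55, 7.64 and 7.52 in SVZ cultures. These did not overlap, with IV ventricle below as in 1386 of all 18194 genes. The Melk difference of -0.20 ± 0.10 (SE) had a limma adjusted p of 0.604. The culture numbered 3 was the lowest of its region by the median mitosis gene in all 3 regions. Its median difference from the hindbrain mean was -0.15 for IV ventricle, -0.16 for cerebellum and -0.08 for SVZ, and the other 6 NSC cultures lay between 0.01 and 0.10. The cultures numbered 3 shared a date mark that no other NSC culture carried, so number and mark cannot be told apart.

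Few mitosis genes passed the test between the p53 wild-type lines and hindbrain NSC. Against hindbrain NSC, 1 gene rose (Prc1), 1 fell (Plk1) and 35 of 37 were not called, where 3.51% of all genes were called higher and 6.06% lower. The median difference of the 37 was 0.02, against 0.00 over all genes, and the range ran from -0.45 to 0.31. In all, 6 mitosis genes had an unadjusted p under 0.05. Neuronal, microglial and vascular markers (12 genes each) had 0 calls between lines and hindbrain NSC, and astrocyte markers had 1 of 10 higher and 2 lower. In bulk samples such as these, fewer dividing cells and less RNA per dividing cell cannot be told apart.

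Plk1, the Polo kinase that drives mitotic entry and spindle assembly, was 8.04 to 8.47 with a median of 8.23 in the 6 hindbrain cultures and 7.31 to 8.03 with a median of 7.85 in the 8 lines. Every line lay below every hindbrain culture, as in 2.52% of all genes. The means were 7.79 ± 0.22 (SD, n = 8) and 8.24 ± 0.19 (n = 6), a difference of -0.45 ± 0.13 (SE) with a limma adjusted p of 0.0388. Prc1, which bundles the microtubules of the central spindle, was 8.25 to 8.52 (median 8.45) in the lines and 7.86 to 8.32 (median 8.22) in hindbrain NSC, a difference of 0.26 ± 0.08 (SE) with an adjusted p of 0.0495. The Prc1 values of lines and hindbrain NSC overlapped. Both calls rest on few cultures. Leaving out 1 culture ended the Plk1 call in 8 of 14 cases (cerebellar cultures 1 and 2, IV ventricle cultures 1 and 2, lines 74, 9, 49 and 77) and the Prc1 call in 12 of 14, all but lines 9 and 77, with differences of -0.56 to -0.33 and of 0.20 to 0.30 over all alternatives and adjusted p up to 0.201 and 0.3. Scaling each array on its median also ended the Plk1 call, and moved the split over all genes from 638 higher and 1102 lower to 788 and 849.

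No other mitosis gene was called in this comparison. Top2a, the topoisomerase that untangles sister chromatids, was 9.58 to 10.34 (median 10.03) in the lines and 9.51 to 9.82 (median 9.75) in hindbrain NSC, a difference of 0.31 ± 0.12 (adjusted p 0.116). Cdca8, which encodes borealin of the chromosomal passenger complex, was 8.19 to 8.59 (median 8.39) in the lines and 8.52 to 8.84 (median 8.80) in hindbrain NSC, a difference of -0.35 ± 0.11 (adjusted p 0.0507). Both pairs of ranges overlapped. The other probe sets of Cdca8 gave 0.08 and -0.12 in place of -0.35. The kinetochore motor gene Cenpe was 6.95 to 7.72 (median 7.27) in the lines and 6.75 to 7.28 (median 7.07) in hindbrain NSC, a difference of 0.25 ± 0.13 (adjusted p 0.283). Anln, the scaffold of the contractile ring, was 7.41 to 8.25 (median 7.81) and 7.29 to 7.77 (median 7.65), a difference of 0.25 ± 0.14 (adjusted p 0.288). Kif23, the motor subunit of centralspindlin, was 6.94 to 7.48 (median 7.19) and 7.22 to 7.58 (median 7.47), a difference of -0.24 ± 0.10 (adjusted p 0.157). These 3 genes also overlapped between the groups. The cyclin gene Ccnb2 was 6.49 to 8.67 (median 8.12) in the lines, where hindbrain NSC held 8.04 to 8.31 (median 8.23), and Cenpa, the centromeric form of histone H3, was 7.55 to 8.64 (median 8.19) against 8.30 to 8.59 (median 8.41). Each differed by -0.23, with SE of 0.24 and 0.17 and adjusted p of 0.645 and 0.474.

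Among the regulators at the top of the program, Foxm1 was 6.09 to 7.85 (median 7.17) in the lines and 6.89 to 7.48 (median 7.17) in hindbrain NSC, a difference of 0.00 ± 0.23. The lines spread on both sides of the hindbrain range. Cdk1 was 8.76 to 9.27 (median 9.05) in the lines and 9.03 to 9.21 (median 9.08) in hindbrain NSC, a difference of -0.05 ± 0.09. Aurka, the centrosomal Aurora kinase, was 6.93 to 7.77 (median 7.47) and 7.38 to 7.72 (median 7.62), a difference of -0.14 ± 0.14. Mki67 was 9.78 to 10.33 (median 10.1) and 9.79 to 10.05 (median 9.97), a difference of 0.16 ± 0.09 with an adjusted p of 0.313. None of these 4 was called, with adjusted p of 0.313 to 0.994.

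Against SVZ NSC the lines were not called in any mitosis gene. In this fit 0 of 37 genes rose and 0 fell, where 2.07% of all genes were called higher and 3.78% lower, and 5 mitosis genes had an unadjusted p under 0.05. Kif23 had the smallest adjusted p of the 37, 0.0945, with a difference of -0.37 ± 0.12 (SVZ cultures at 7.73, 7.51 and 7.45). Top2a differed by 0.39 ± 0.15 and Plk1 by -0.41 ± 0.16, with adjusted p of 0.146 and 0.159. Cdca8 was the 1 gene of the 37 in which all lines lay below all SVZ cultures, as in 1037 of all 18194 genes. Its difference was -0.35 ± 0.14 (limma adjusted p 0.148). Scaling each array on its 75th percentile moved the split over all genes from 376 higher and 688 lower to 483 and 532 and left 0 mitosis genes called. Both comparisons of the lines use the same 8 lines.

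The lines spanned a wider range than the stem cell cultures by the median mitosis gene set against the hindbrain mean, from -0.39 to 0.22 where the 9 NSC cultures lay between -0.16 and 0.10. Line 49 stood at -0.39, with 33 of 37 genes below the hindbrain mean, and lines 92 and 83 stood at 0.20 and 0.22, each with 31 of 37 above it. The other 5 lines lay between -0.13 and 0.07. The median over all genes stayed within -0.05 and 0.04 in the 8 lines. In line 49 Ccnb2 was 6.49, where the next line was at 8.02, and the cytokinesis gene Ect2 was 6.43, where the next was at 7.15. Yet the same line held Racgap1, the partner of Kif23 in centralspindlin, at 8.51, near the top of the 7.97 to 8.59 range of the lines, and Cenpf at 8.01. Line 74 had the highest Top2a of the lines, 10.34, and line 77 the highest Hmmr, 8.31.

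**Figure D2:**
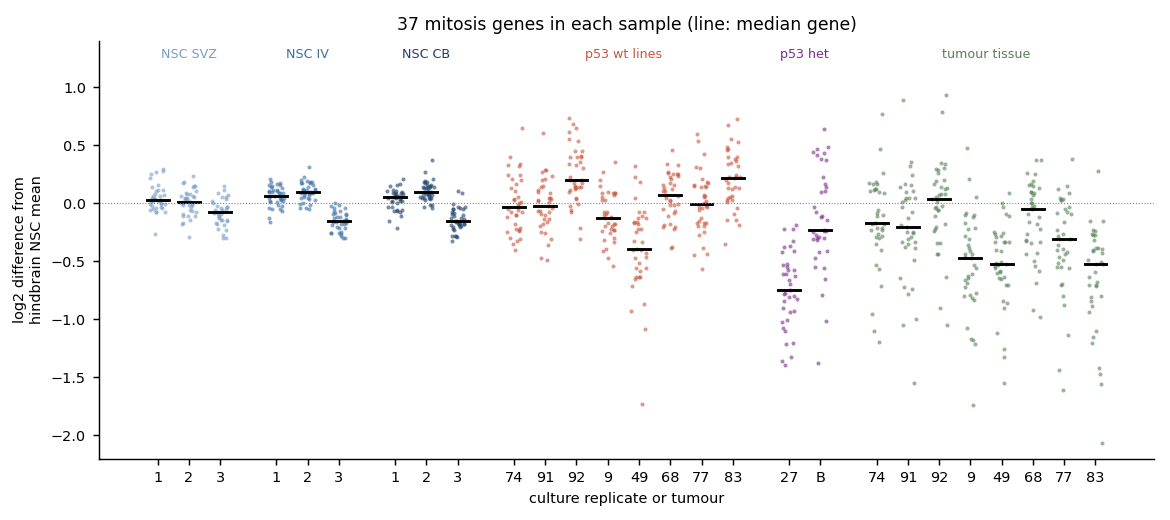
Each point is 1 of 37 mitosis genes in 1 sample, as the log2 difference from the mean of the 6 hindbrain NSC cultures, and the black line is the median gene. The medians are -0.16 to 0.10 in NSC, -0.39 to 0.22 in the lines, -0.75 in tumour 27, -0.24 in tumour B and -0.53 to 0.04 in tissue.

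The p53 heterozygous cultures had less RNA of several mitosis genes than either hindbrain NSC or the lines. Against hindbrain NSC, 13 of 37 genes fell and 0 rose, where 13.0% of all genes were called lower and 13.8% higher. Against the lines, 13 of 37 fell and 0 rose, where 11.8% were called lower and 14.5% higher. The genes of the set are not dim, and among the 9850 genes with a mean of at least 4 the share called lower was 21.8% against hindbrain NSC and 20.3% against the lines. The median difference of the 37 was -0.39 against hindbrain NSC and -0.38 against the lines, where it was 0.03 over all genes in each. The groups did not overlap, with both tumours below, in 16 genes against hindbrain NSC (16.7% of all genes) and in 8 against the lines (11.4%). These 2 comparisons share tumours 27 and B.

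Kinetochore genes held the largest differences of the set. Cenpf, a large protein of the outer kinetochore, was 6.42 in tumour 27 and 6.40 in tumour B, where the 8 lines held 7.53 to 8.18 (median 7.88) and hindbrain NSC 7.53 to 7.95 (median 7.85). Both tumours lay more than 1 unit below every other culture. The difference was -1.47 ± 0.14 (SE) against the lines, 2.78-fold lower (adjusted p 8.34e-07), and -1.37 ± 0.15 against hindbrain NSC, 2.59-fold lower (adjusted p 2.82e-06). Cenpe was 5.68 in tumour 27 and 6.42 in tumour B, below the 6.95 to 7.72 of the lines and the 6.75 to 7.28 of hindbrain NSC, with differences of -1.28 ± 0.20 (adjusted p 0.000105) and -1.03 ± 0.20 (adjusted p 0.000969). Cenpa did not follow them. It was 7.81 in tumour 27 and 9.06 in tumour B, where the lines held 7.55 to 8.64 and hindbrain NSC 8.30 to 8.59, and its difference from the lines was 0.25 ± 0.25 (adjusted p 0.544).

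Mki67 was 8.74 in tumour 27 and 9.16 in tumour B, below the lowest line at 9.78 and the lowest hindbrain culture at 9.79. It differed by -1.15 ± 0.13 from the lines, 2.22-fold lower (adjusted p 3.87e-06), and by -0.99 ± 0.13 from hindbrain NSC (adjusted p 2.56e-05). Of the other chromosome structure genes, Top2a was 9.32 and 9.38 in tumours 27 and B, below the 9.58 to 10.34 of the lines, a difference of -0.65 ± 0.17 (adjusted p 0.00925). It was not called without tumour 27 or without tumour B, and a dimmer probe set of Top2a put tumour B 0.54 above the lines. Against hindbrain NSC its difference was -0.34 ± 0.18 (adjusted p 0.187). Ncapd2, a condensin subunit, fell by 0.71 against the lines (adjusted p 0.0171) and by 0.70 against hindbrain NSC (adjusted p 0.0214). Hmgb2, a chromatin protein with HMG boxes, was 8.99 in tumour 27 and 10.23 in tumour B, which lay outside the 9.55 to 9.89 of hindbrain NSC in opposite directions, and was not called.

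Among the entry regulators, Foxm1 was 5.85 in tumour 27 and 6.61 in tumour B. Tumour 27 lay below all other cultures and tumour B within the lines, which held 6.09 to 7.85. The difference was -0.95 ± 0.33 against the lines (adjusted p 0.0427) and -0.94 ± 0.34 against hindbrain NSC (adjusted p 0.0496), and it lost its call when any of several single cultures was left out (line 74, 91, 92, 9 or 83, or tumour 27, against the lines, and cerebellar culture 1, 2 or 3, IV ventricle culture 1 or 2, or tumour 27, against hindbrain NSC), with adjusted p up to 0.467 and 0.47. Ccna2, the gene of cyclin A2, fell by 0.86 (adjusted p 0.00237) and by 0.88 (adjusted p 0.00245). The kinase gene Pbk fell against the lines by 0.52 (adjusted p 0.0473), a call that ended without line 74, 91, 92, 9, 68, 77 or 83 or tumour 27, with adjusted p up to 0.892 over all alternatives. Cdk1, in contrast, was 8.90 in tumour 27 and 9.53 in tumour B, around a hindbrain range of 9.03 to 9.21, with differences of 0.17 ± 0.13 from the lines and 0.12 ± 0.14 from hindbrain NSC that were not called. Cdk1, Cenpa and Aurka were the only 3 of the 37 with a difference above 0 against the lines.

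The other genes that fell against the lines were the spindle motor Kif11 (-0.93 ± 0.17, adjusted p 0.000534), the checkpoint kinase Ttk (-0.61, adjusted p 0.00448), Prc1 (-0.60 ± 0.12, adjusted p 0.000779), the Aurora A activator Tpx2 (-0.53, adjusted p 0.00325) and the centrosome kinase Nek2 (-0.41, adjusted p 0.033). Prc1 was 7.74 and 7.88 in tumours 27 and B, below every line, and overlapped hindbrain NSC, from which it differed by -0.35 ± 0.12 (adjusted p 0.0392). Nek2 was 6.79 and 7.27, where the lines held 7.19 to 7.74 and hindbrain NSC 7.24 to 7.51. Its call ended with 75th percentile scaling, with only the arrays compared, with the lines of 1 date mark alone and without tumour 27, and the mean of its 4 probe sets gave a difference of 0.03 in place of -0.41. Against hindbrain NSC the remaining calls were Kif11, Tpx2, Ttk, Cdca8 (-0.70, adjusted p 0.00391), Plk1 (7.22 and 7.95, -0.65, adjusted p 0.0192), Kif23 (6.90 and 7.12, -0.42, adjusted p 0.0476), all lower. The Kif23 and Prc1 calls against hindbrain NSC each ended without cerebellar culture 1 or 2, IV ventricle culture 1 or 2, tumour 27 or tumour B, with adjusted p up to 0.376 and 0.278 over all alternatives. By role, 3 of 6 entry regulators, 2 of 7 kinases and 0 of 3 genes grouped under anaphase degradation (Cdc20, Ube2c and Cdca3) fell against the lines. The counts of the other roles were 2 of 6 centromere and passenger genes, 3 of 8 spindle motors and bundlers, 0 of 3 cytokinesis genes and 3 of 4 chromosome structure genes. Against the lines 11.8% of all genes were called lower, and 20.3% of genes with a mean of at least 4. The roles hold few genes, and none was tested against these shares.

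Cytokinesis genes were not called in either comparison. Anln was 7.35 in tumour 27 and 7.99 in tumour B, Racgap1 7.97 and 8.57, and Ect2 6.45 and 7.28. In each, tumour 27 was the lower of the pair. Their differences from the lines were -0.15 ± 0.20, -0.03 ± 0.16 and -0.30 ± 0.22.

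**Figure D3:**
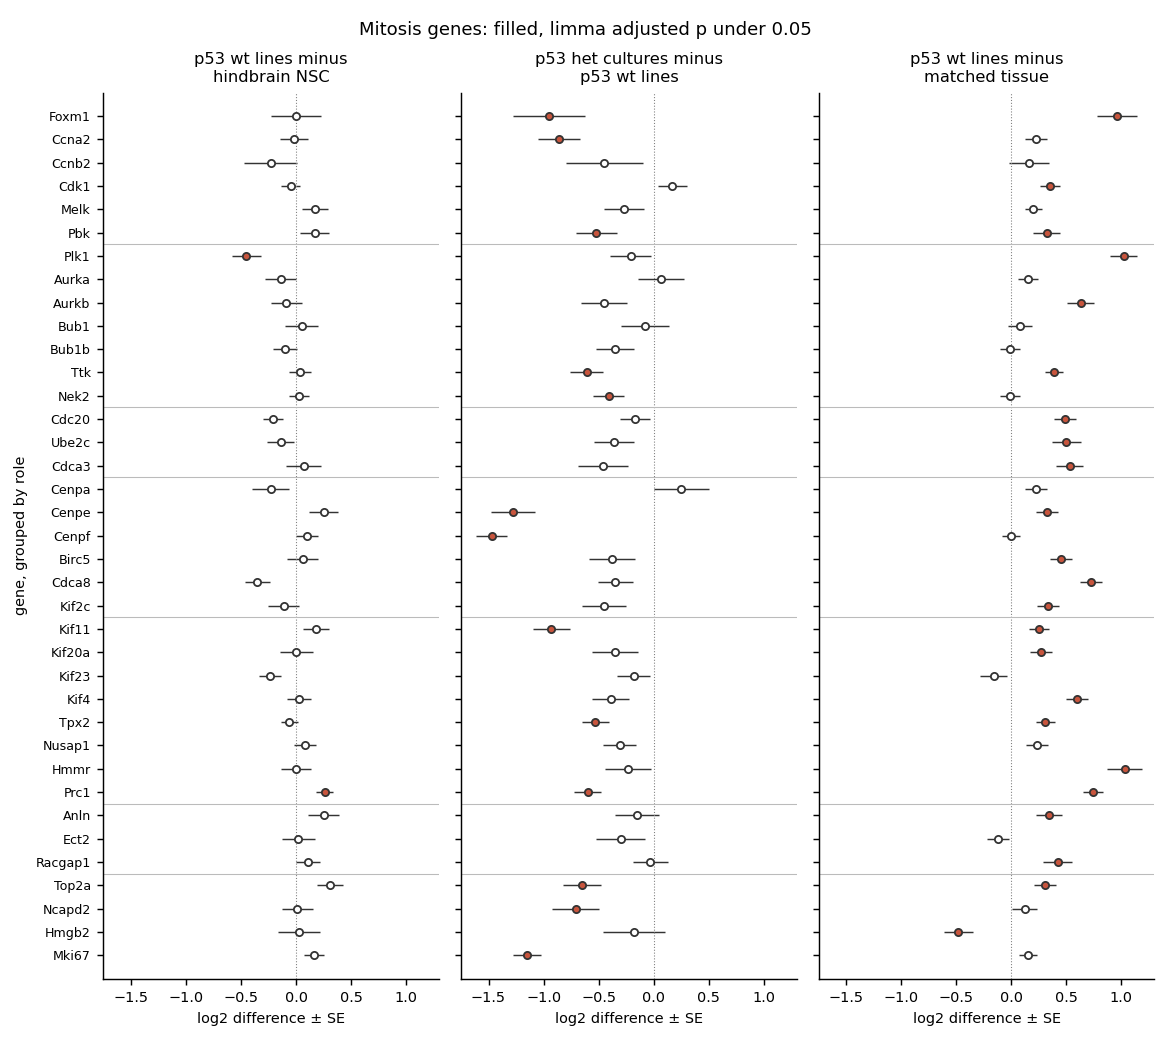
Log2 difference ± SE of each mitosis gene in 3 comparisons, with genes grouped by role and filled points at a limma adjusted p under 0.05. Calls are 1 higher and 1 lower (lines minus hindbrain NSC), 13 lower (p53 heterozygous cultures minus lines), and 22 higher and 1 lower (lines minus tissue).

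The 2 p53 heterozygous tumours stood at different levels of several mitosis genes. Their arrays shared no date mark, so tumour and date mark cannot be told apart between them. Tumour 27 stood below all 17 other cultures (9 NSC and 8 lines) in 30 of 37 mitosis genes (81.1%, where it did so in 15.8% of all genes) and above them in 0. Tumour B stood below them in 7 (18.9%, against 15.3% of all genes), namely Ttk, Cenpe, Cenpf, Kif11, Tpx2, Top2a and Mki67, and above them in 4 (10.8%, against 17.8%), namely Cdk1, Aurka, Bub1 and Cenpa. By the median mitosis gene, set against the hindbrain mean, the 3 technical arrays of tumour 27 lay at -0.69, -0.78 and -0.70 and those of tumour B at -0.15, -0.26 and -0.16. The labels call these arrays technical replicates but give more than 1 date mark per tumour. Their spread may hold more than array and handling error, and it does not measure the spread between tumours. A test of 1 tumour against the other, chosen after their values were seen, therefore took the spread of each from that among the other cultures. In it 5 of 37 genes were lower in tumour 27 by limma, Kif4 (-0.93 ± 0.20, adjusted p 0.0126), Kif20a (-1.16 ± 0.27, adjusted p 0.0194), Melk (-0.95 ± 0.24, adjusted p 0.0321), Cdca8 (-0.80 ± 0.22, adjusted p 0.047) and Cenpa (-1.24 ± 0.34, adjusted p 0.0486). None was higher, where 2.53% of all genes were called lower in tumour 27 and 1.58% higher, and 20 of 37 had an unadjusted p under 0.05.

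Tumour 27 was below tumour B in 35 of 37 genes, with a median difference of -0.64, and the technical arrays did not overlap in 33 of these. Over all genes the median difference was 0.04. The share of all genes whose technical arrays did not overlap was not counted, so the 33 cannot be set against it. Ccnb2 ran the other way, with arrays of 7.96, 7.91 and 7.78 in tumour 27 and 7.34, 7.24 and 7.02 in tumour B. The arrays overlapped in Cenpf (6.20, 6.29 and 6.76 against 6.47, 6.40 and 6.34), in Top2a and in Kif23. Cenpa read 7.97, 7.73 and 7.74 in tumour 27 and 9.19, 8.94 and 9.05 in tumour B, and Hmgb2 9.37, 8.72 and 8.88 against 10.17, 10.11 and 10.41, the 2 widest gaps of the set at 1.24 each. Kif20a, the motor that carries the passenger complex to the midzone, followed with 6.23, 6.29 and 6.28 against 7.40, 7.32 and 7.56. Aurka read 7.22, 6.92 and 6.82 in tumour 27 and 8.11, 7.99 and 7.89 in tumour B, and Cdk1 8.95, 8.86 and 8.90 against 9.64, 9.51 and 9.44. The gap in these 5 genes was wider than the spread of the technical arrays of either tumour, and that of Hmgb2, Aurka and Cdk1 did not pass the test between the tumours (limma adjusted p 0.117, 0.0541 and 0.0784).

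**Figure D4:**
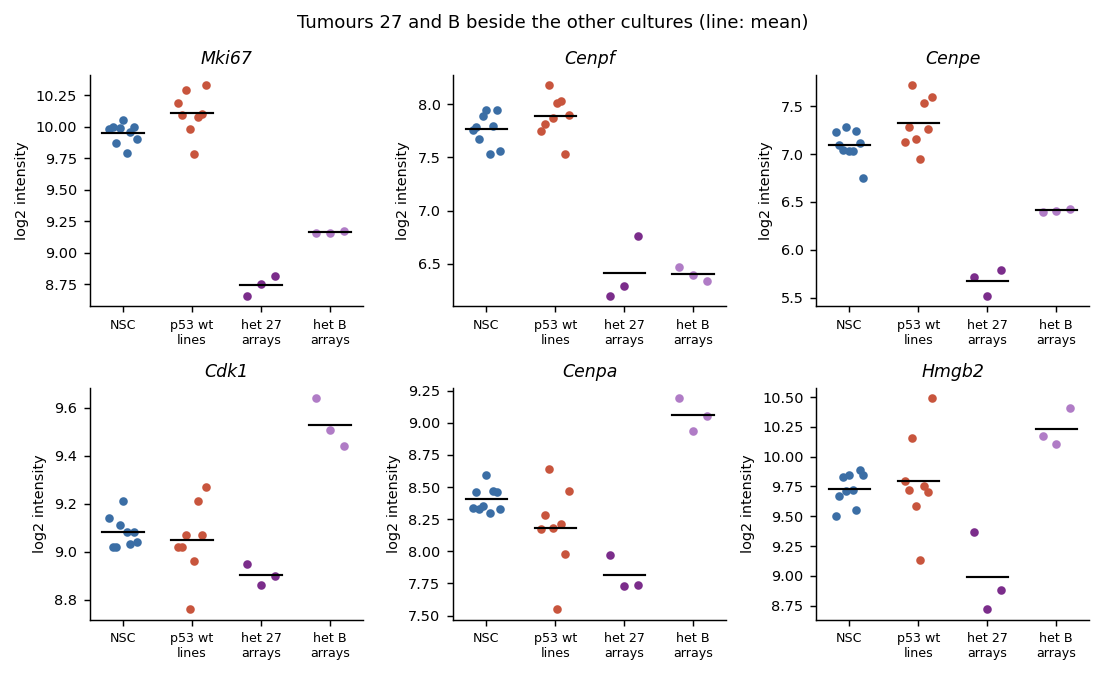
Log2 intensity of 6 mitosis genes in 9 NSC cultures, 8 p53 wild-type lines and the 3 technical arrays each of tumours 27 and B, with lines at the means. In Mki67, Cenpf and Cenpe both tumours lie below all 17 other cultures, and in Cdk1, Cenpa and Hmgb2 tumour B lies above tumour 27 (Cenpa at 9.06 and 7.81).

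Fitting each tumour alone, with its spread assumed to be that of the other cultures, gave different counts. With tumour 27 alone, 20 genes fell against hindbrain NSC and 18 against the lines, and 0 rose, with medians of -0.75 and -0.72. The shares of all genes were 10.5% lower and 10.6% higher against hindbrain NSC, and 9.43% lower and 10.5% higher against the lines. With tumour B alone, 2 genes fell against hindbrain NSC (Cenpf -1.38 and Mki67 -0.79) and 1 rose (Cdk1 0.44 ± 0.14, adjusted p 0.0412), with a median of -0.24, where 9.29% of all genes were called lower and 11.5% higher. Against the lines with tumour B alone, 5 fell (Cenpf -1.48, Mki67 -0.94, Cenpe -0.91, Kif11 -0.60 and Prc1 -0.53) and 2 rose (Cenpa 0.87 ± 0.25, adjusted p 0.021, and Cdk1 0.48 ± 0.14, adjusted p 0.0229), with a median of -0.07, where 8.13% were called lower and 11.6% higher. Cenpf and Mki67 were thus lower in both tumours against both references, whereas without tumour 27 the calls of 8 genes against the lines ended (Ccna2, Foxm1, Ncapd2, Nek2, Pbk, Top2a, Tpx2 and Ttk), as did all against hindbrain NSC but those of Cenpf and Mki67. The lines of either date mark alone gave 13 and 11 genes lower, where 13% and 10.1% of all genes were called lower.

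Some other markers differed between the p53 heterozygous cultures and the lines, where 14.5% of all genes were called higher and 11.8% lower. Neural stem cell markers averaged 7.21 in tumour 27 and 6.78 in tumour B, below the 8.14 to 8.89 of the lines, and 8 of 10 fell. Oligodendrocyte lineage markers averaged 6.91 and 6.73, above the 5.56 to 5.99 of the lines, with 3 of 9 higher and 2 lower. Vascular markers averaged 2.46 and 3.13, where the lines held 2.07 to 2.50, with 2 of 12 higher, near the share of all genes, and 0 lower. Neuronal markers had 1 of 12 higher and 2 lower, and microglial markers had 0 of 12 called. Astrocyte markers averaged 6.83 in tumour 27 and 5.21 in tumour B, on either side of the 6.06 to 6.66 of the lines, with 2 of 10 higher and 2 lower. RMA values have no true 0, so absence cannot be read from them. Their part in the result was not tested.

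Other genes of the pathway gave further detail. Of 54 other mitosis genes, 21 fell and 1 rose against the lines, with a median of -0.38, where 11.8% of all genes were called lower and 14.5% higher. Aspm, the spindle pole protein of the abnormal spindle family, was 6.66 in tumour 27 and 6.70 in tumour B, a difference of -1.42 ± 0.18 (adjusted p 1.53e-05). Sgo2a, a protector of centromeric cohesion, was 6.39 and 6.72 (-0.99, adjusted p 1.6e-05), and the condensin II gene Ncapg2 6.35 and 7.52 (-1.29, adjusted p 0.000139). Both tumours lay below the mean of the lines in these 3 genes, which was 8.1, 7.54 and 8.23. The single gene that rose was the checkpoint gene Bub3, at 9.75 and 9.73 against 9.41 ± 0.11 in the lines (0.33, adjusted p 0.00726). With tumour 27 alone the count was 29 lower and 0 higher (9.43% and 10.5% of all genes), and with tumour B alone 4 lower and 3 higher (8.13% and 11.6%).

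Of 41 DNA replication genes, 12 fell against the lines and 0 rose, against the same 11.8% and 14.5% of all genes. With tumour 27 alone 26 fell and 0 rose (median -0.68), where 9.43% of all genes were called lower and 10.5% higher. With tumour B alone 3 fell and 8 rose (median 0.16), where the shares were 8.13% and 11.6%. Between the tumours 16 of 41 were lower in tumour 27 and 0 higher (median -0.81). Rrm2, a subunit of ribonucleotide reductase, was 7.16 in tumour 27 and 9.23 in tumour B, where the lines averaged 10.1 ± 0.16, a difference of -1.90 ± 0.30 (adjusted p 0.000144). Dnmt1, the maintenance DNA methyltransferase, was 7.66 and 7.93 (-0.77, adjusted p 0.00011), and the polymerase delta gene Pold1 6.51 and 7.27 (-0.97, adjusted p 0.000412).

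Of 22 genes of the MuvB and DREAM complexes and cell cycle inhibitors, 9 fell and 2 rose against the lines. Cdkn1a, the p53 target that encodes p21, was 7.11 in tumour 27 and 6.10 in tumour B where the lines averaged 8.43 ± 0.59, and so differed by -1.83 ± 0.35 (adjusted p 0.000708). Cdkn2c, an inhibitor of Cdk4 and Cdk6, fell by 0.89 (adjusted p 0.000603). Rb1 was 6.59 and 6.51 (-0.79, adjusted p 0.00102), and Mybl2, the gene of B-Myb, 4.22 and 4.99 (-0.50, adjusted p 0.0481). Cdkn2a rose, at 7.13 and 7.12 against 3.92 ± 1.64 in the lines (3.21 ± 0.87, adjusted p 0.0101), and so did E2f4 (0.59, adjusted p 0.0201). Of 12 genes of the anaphase-promoting complex, 2 rose (Cdc26 0.63 and Anapc10 0.61) and 3 fell, Anapc1 by 0.91, Anapc2 by 0.38 and Cdc23 by 0.58, counts of few genes where 14.5% of all genes were called higher and 11.8% lower. Against hindbrain NSC the counts were 17 of 54 other mitosis genes lower and 1 higher, 10 of 41 replication genes lower and 1 higher, 8 of 22 lower and 1 higher, and 3 of 12 lower and 4 higher, where 13.0% of all genes were called lower and 13.8% higher.

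Of 37 mitosis genes, 22 were higher in the lines than in the tumours they came from. Within the 8 tumours, with the tumour as a block, 1 was lower and 14 were not called, where 26.6% of all genes were called higher and 23.1% lower. Among genes with a mean of at least 4 these shares were 38.1% and 29.1%. The median difference of the 37 was 0.31, against 0.06 over all genes. In 5 genes (Plk1, Prc1, Cdca8, Kif4 and Cdc20) all 8 lines lay above all 8 tissues, as in 11.6% of all genes.

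Hmmr, a microtubule protein of the spindle poles and the hyaluronan-mediated motility receptor, was 7.12 to 8.31 (median 7.77) in the lines and 6.30 to 7.14 (median 6.76) in tissue, and the line was higher in 8 of 8 pairs. The difference was 1.03 ± 0.16 (SE), 2.04-fold (adjusted p 0.000346). Plk1 was 7.31 to 8.03 (median 7.85) in the lines and 6.17 to 7.26 (median 6.69) in tissue, higher in 8 of 8 pairs by 1.02 ± 0.12 (adjusted p 6.58e-05). Lines and tissues thus shared no value of Plk1. Foxm1 was 6.09 to 7.85 (median 7.17) in the lines and 5.75 to 6.93 (median 6.12) in tissue, higher in 8 of 8 pairs by 0.96 ± 0.18 (adjusted p 0.00109). Prc1 was 8.25 to 8.52 (median 8.45) and 7.27 to 7.97 (median 7.70), higher in 8 of 8 by 0.74 ± 0.09 (adjusted p 5.07e-05). The promoters of Hmmr and Prc1 are among those printed above.

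The counts by role stand beside 26.6% of all genes called higher in the lines, and 38.1% of genes with a mean of at least 4. No role was tested against these shares. By role, all 3 genes grouped under anaphase degradation were higher in the lines, though 1 of them, Cdca3, acts at mitotic entry. These were Cdc20, the activator of the anaphase-promoting complex (0.49 ± 0.10, adjusted p 0.002), Ube2c, the ubiquitin-conjugating enzyme that works with it (0.50 ± 0.13, adjusted p 0.00845), and Cdca3, which aids mitotic entry (0.53 ± 0.12, adjusted p 0.00415). Of 6 centromere and passenger genes 4 were higher, Cdca8 (0.72 ± 0.10, adjusted p 0.000187), Birc5 or survivin (0.45 ± 0.10), Kif2c (0.33 ± 0.10) and Cenpe (0.32 ± 0.10). Cdca8 was 8.19 to 8.59 (median 8.39) in the lines and 7.17 to 8.02 (median 7.64) in tissue. Its passenger partner kinase Aurkb was also higher (0.63 ± 0.12, adjusted p 0.00131), and with Plk1 and Ttk (0.39 ± 0.08) it made up 3 of 7 kinases. Of 8 spindle genes 6 were higher, Hmmr, Prc1, the chromokinesin Kif4 (0.60 ± 0.10, adjusted p 0.000684), Tpx2 (0.31 ± 0.09, and 0.03 in its next probe set), Kif20a (0.27 ± 0.10) and Kif11 (0.25 ± 0.09, and 0.07 and 0.10 in its other probe sets). Of 6 entry regulators 3 were higher, Foxm1, Cdk1 and Pbk (0.32 ± 0.12). Cdk1 was 8.76 to 9.27 (median 9.05) in the lines and 8.37 to 9.04 (median 8.68) in tissue, higher in 8 of 8 pairs by 0.35 ± 0.09 (adjusted p 0.00726). Of 3 cytokinesis genes 2 were higher, Anln (6.97 to 7.92 in tissue, 0.34 ± 0.12, adjusted p 0.0366) and Racgap1 (7.48 to 8.15, median 7.92, in tissue, 0.42 ± 0.13, adjusted p 0.0217). Several of these calls ended when 1 tumour was left out, those of Kif11 (91, 92, 9, 68, 77 or 83), Kif20a (92, 9, 49, 68, 77 or 83), Anln (92, 9, 49, 77 or 83), Pbk (74, 91, 9, 68 or 83), Cenpe (92, 68, 77 or 83) and Racgap1 (49).

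Of 4 chromosome structure genes 1 was higher (Top2a), 1 lower (Hmgb2) and 2 were not called. Hmgb2 was 9.13 to 10.49 (median 9.73) in the lines and 9.76 to 10.69 (median 10.19) in tissue. It was lower in the line in all pairs but that of tumour 83 (10.49 in the line and 10.04 in tissue), with a difference of -0.48 ± 0.13 (adjusted p 0.0117). Its dimmest probe set gave 0.15, and the call ended with the mean of its probe sets and in the tumours of 2 date marks. Mki67 was 9.78 to 10.33 (median 10.1) in the lines and 9.70 to 10.14 (median 9.98) in tissue, higher in 5 of 8 pairs, with a difference of 0.15 ± 0.08 (adjusted p 0.17). The ranges of Mki67 in lines and tissue thus lay almost on each other. Top2a was 9.58 to 10.34 (median 10.03) and 9.52 to 9.86 (median 9.73), higher in 6 of 8 pairs by 0.31 ± 0.10 (adjusted p 0.02), and lost its call without tumour 74, 77 or 83.

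Several members showed no difference that passed the test. Cenpf was 7.53 to 8.18 (median 7.88) in the lines and 7.63 to 8.15 (median 7.88) in tissue, higher in 4 of 8 pairs, a difference of 0.00 ± 0.08 (adjusted p 0.983). Nek2 was 7.19 to 7.74 (median 7.43) and 7.15 to 7.72 (median 7.51), a difference of -0.01 ± 0.09, and the checkpoint gene Bub1b also differed by -0.01 ± 0.09. Aurka was 6.93 to 7.77 (median 7.47) and 6.88 to 7.66 (median 7.26), a difference of 0.15 ± 0.09 (adjusted p 0.216). Kif23 was 6.94 to 7.48 (median 7.19) and 6.91 to 7.68 (median 7.46), a difference of -0.16 ± 0.12 (adjusted p 0.269), and Ect2 was 6.43 to 7.54 (median 7.21) and 6.62 to 7.93 (median 7.32), a difference of -0.12 ± 0.10 (adjusted p 0.316). Lines and tissues overlapped in all of these. The rest of the 14 were Bub1 (0.08 ± 0.11), Ncapd2 (0.12 ± 0.11), Ccnb2 (0.16 ± 0.18), Melk (0.20 ± 0.08), Ccna2 (0.22 ± 0.10), Cenpa (0.22 ± 0.10) and Nusap1, a microtubule bundler (0.23 ± 0.10).

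**Figure D5:**
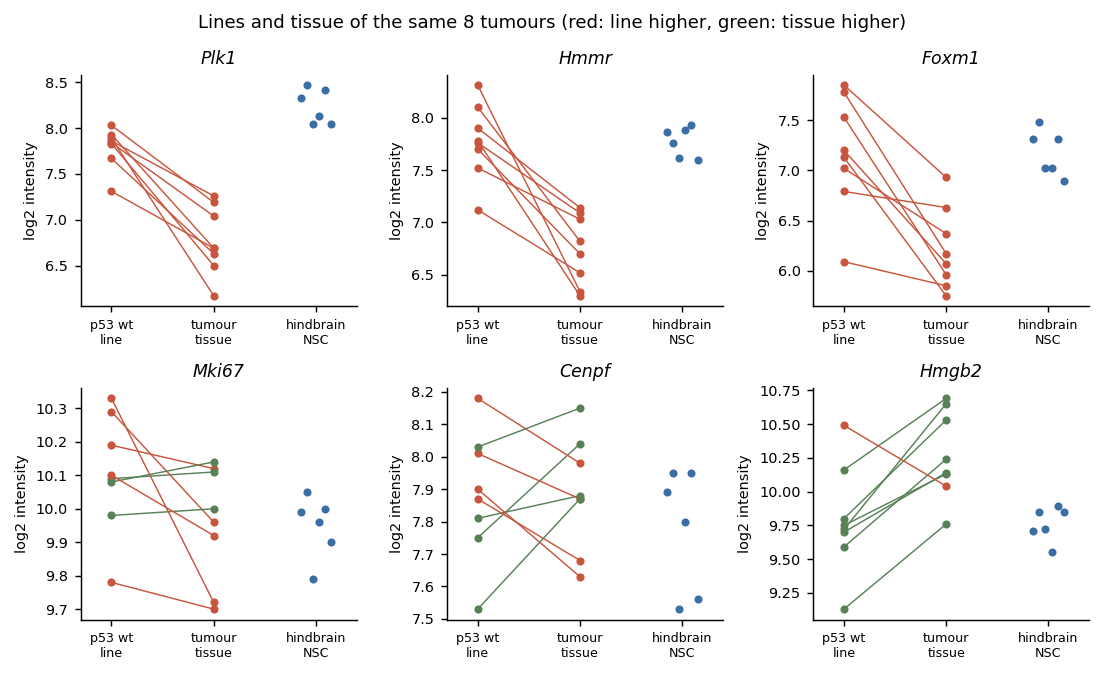
Log2 intensity of 6 mitosis genes in each line and the tissue of the same tumour, joined by a segment (red where the line is higher, green where the tissue is), with the 6 hindbrain NSC cultures beside them. The line is higher in 8 of 8 pairs for Plk1, Hmmr and Foxm1, in 5 for Mki67, in 4 for Cenpf and in 1 for Hmgb2.

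Line and tissue of tumours 74, 91, 92 and 9 carried 1 date mark and those of tumours 49, 68, 77 and 83 carried 2. Within the 4 tumours of 1 date mark 11 genes were higher and 1 lower (median 0.21), and within the other 4 tumours 12 were higher and 0 lower (median 0.34). Of all genes, 21.1% were called higher and 19% lower in the former, and 16.2% and 16.4% in the latter. Of the 23 genes called over all tumours, Hmmr, Plk1, Prc1, Cdca8, Kif4 and Birc5 were called in both sets of tumours, and Foxm1 in the former but not the latter (1.31 and 0.61, adjusted p 0.0869 in the latter, the difference between them not tested).

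Markers of other cell types moved with this comparison. Neuronal markers (12 genes) averaged 7.53 to 8.60 in tissue and 3.27 to 4.38 in the lines, and 9 of 12 were lower in the lines. Microglial markers averaged 5.65 to 6.84 in tissue and 1.85 to 2.25 in the lines, and vascular markers 3.51 to 4.16 and 2.07 to 2.50, with 12 of 12 lower in the lines in each. Neural stem cell markers averaged 6.52 to 7.04 in tissue, below the lines, with 8 of 10 higher in the lines and 2 lower. Erythroid markers, of which 3 of 6 were measured, averaged 1.44 to 1.85 in tissue and 1.51 to 1.87 in the lines, with 0 called. Their part in the difference of the mitosis genes was not tested.

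Against hindbrain NSC, tissue also had less RNA of many mitosis genes. In that fit 19 of 37 mitosis genes were lower in tissue and 1 was higher, where 28.0% of all genes were called lower and 23.1% higher, and 39.9% and 29.2% of genes with a mean of at least 4. The median was -0.29, against -0.06 over all genes, and in 7 genes all tissues lay below all hindbrain cultures (16.7% of all genes). Plk1 had the largest difference of the set, -1.47 ± 0.16 (SE), 2.77-fold lower (6.77 ± 0.37, n = 8, and 8.24 ± 0.19, n = 6, adjusted p 1.54e-06). Cdca8 (-1.07 ± 0.11), Hmmr (-1.03 ± 0.14), Foxm1 (-0.95 ± 0.17) and Aurkb (-0.72 ± 0.14) followed, and the anaphase genes Cdc20 and Ube2c fell by 0.71 and 0.64. Hmgb2 was the gene that rose, by 0.51 ± 0.14 (adjusted p 0.00546). Mki67 (0.01 ± 0.08), Top2a (-0.01 ± 0.08), Bub1 (-0.03 ± 0.12) and Cenpf (0.11 ± 0.10) were not called. By role, 4 of 6 entry regulators, 3 of 7 kinases and 3 of 3 genes of the anaphase group (Cdc20, Ube2c and Cdca3) were lower. The counts of the other roles were 4 of 6 centromere and passenger genes, 4 of 8 spindle genes, 1 of 3 cytokinesis genes and 0 of 4 chromosome structure genes. This comparison uses the same tissues as that with the lines, so the values of the 2 are not independent. Neuronal markers averaged 3.53 to 3.79 in hindbrain NSC, and 9 of 12 were higher in tissue, as were 12 of 12 microglial markers. Their part was not tested.

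Tissues differed in level among themselves. By the median mitosis gene, set against the hindbrain mean, tissues 92, 68, 74 and 91 lay at 0.04, -0.05, -0.17 and -0.21, and tissues 77, 9, 49 and 83 at -0.31, -0.47, -0.52 and -0.53. In tissue 83 Plk1 was 6.17 and Foxm1 5.75, the lowest of the tissues in both genes, while its line stood among the 2 highest lines by the median gene. Tumour 49 stood at -0.39 in its line and -0.52 in its tissue.

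The wider lists were also compared between lines and tissue, where 26.6% of all genes were called higher and 23.1% lower. Of 54 other mitosis genes 28 were higher in the lines and 4 lower (median 0.27). The Cdk phosphatase gene Cdkn3 (6.29 ± 0.24 and 5.16 ± 0.17, a difference of 1.13 ± 0.09, adjusted p 3.72e-06), the kinetochore gene Cenpi (0.84 ± 0.07) and Mastl, the Greatwall kinase (0.70 ± 0.07), had the smallest p of those that were higher. Stmn1, the microtubule destabilizer stathmin, which neurons also express (11.11 ± 0.14 and 12.03 ± 0.07, -0.92 ± 0.07, adjusted p 1.84e-06), the condensin gene Smc2 (-0.83 ± 0.10) and the kinetochore gene Cenpk (-0.33 ± 0.10) had the smallest p of those that were lower. Of 41 replication genes 16 were higher and 6 lower, led by Rrm2 (0.93 ± 0.09) and Gins2 (0.89 ± 0.11), and by E2f1 (-0.89 ± 0.10) and Mcm7 (-0.58 ± 0.07), a helicase subunit. Of the 22 MuvB, DREAM and inhibitor genes 10 were higher and 3 lower. Cdkn1a was 8.43 ± 0.59 in the lines and 6.44 ± 0.64 in tissue (1.99 ± 0.22, adjusted p 3.32e-05), and Mybl2 5.11 ± 0.19 and 4.62 ± 0.36 (0.49, adjusted p 0.0113). Cdkn1b, the p27 inhibitor of resting cells, was lower in the lines (7.67 ± 0.46 and 8.67 ± 0.36, adjusted p 9.76e-07), and so was Rb1 (-0.60 ± 0.09). Of 12 genes of the anaphase-promoting complex 4 were higher and 2 lower.

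Against hindbrain NSC the lines moved few of these wider lists, where 3.51% of all genes were called higher and 6.06% lower. In the other mitosis genes 2 of 54 rose and 0 fell. They were Pttg1, the gene of securin (9.47 ± 0.42 against 8.83 ± 0.26, 0.63 ± 0.17, adjusted p 0.0267), and Sgo2a (0.30 ± 0.09, adjusted p 0.0356). In the replication genes 2 of 41 rose, Pcna (0.32 ± 0.08, adjusted p 0.0188) and Gins3 (0.46 ± 0.13, adjusted p 0.0293), and 0 fell. The rises in these 2 lists lay near the share of all genes. Of the 22 inhibitor and DREAM genes 1 rose, Wee1 (0.24 ± 0.07), and 4 fell, Cdkn2b (-1.96 ± 0.39, adjusted p 0.00428), Cdkn1a (-0.95 ± 0.24, adjusted p 0.0171), E2f4 (-0.60 ± 0.12) and Fzr1 (-0.45 ± 0.11). None of 12 genes of the anaphase-promoting complex was called, and 4 of them had an unadjusted p under 0.05. Against SVZ NSC the limma calls in the 4 lists were 3 in all, where 2.07% of all genes were called higher and 3.78% lower. Each of the 3 was lower in the lines, Ccne1 (-0.80 ± 0.16, adjusted p 0.00733), Cdkn2b (-2.55 ± 0.48, adjusted p 0.00452) and Cdkn1a (-1.17 ± 0.30, adjusted p 0.027). Between tissue and hindbrain NSC, 24 of 54 other mitosis genes were lower in tissue and 5 higher, 11 of 41 replication genes lower and 8 higher, 10 of 22 inhibitor and DREAM genes lower and 4 higher, and 4 of 12 genes of the anaphase-promoting complex lower and 4 higher. Of all genes 28.0% were called lower there and 23.1% higher, and the shares of the replication genes lay near these. Pimreg, a mitotic regulator, had the largest fall of the other mitosis genes there (7.03 ± 0.24 against 8.69 ± 0.20, adjusted p 1.86e-08), and Stmn1 the largest rise (1.01 ± 0.06, adjusted p 1.71e-09).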

How the data were processed

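Affymetrix arrays were read from 31 hybridizations, 27 biological samples once the 3 technical arrays of each p53 heterozygous tumour were averaged. The authors deposited log2 intensities per probe set, made by RMA per the submitters' processing notes (version not given in the sources used here), and these were used without further scaling. Of 45101 probe sets, 34958 had a single gene symbol, 932 had several and 9211 were not listed; of the former, 34754 matched RefSeq by Entrez identifier and 0 symbols changed. Each of 18194 genes was read from its brightest such probe set.

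Differences were fitted with limma 3.58.1 (R 4.3.3; lmFit and eBayes, two-sided, Benjamini-Hochberg over all genes, threshold 0.05). The stem cell regions were fitted on the 9 NSC cultures, the lines and p53 heterozygous cultures on all 19 cultures with hindbrain as the mean of both hindbrain groups, tumour 27 against tumour B on the same cultures as a test added after their values were seen, lines against tissue with the tumour as a block, and tissue against the hindbrain cultures alone. The scripts were tested on simulated data. Arrays give no read depth, so the number of arrays limits the precision. Tables and figures were made with Python 3.11.15, pandas 2.3.3, numpy 2.4.6 and matplotlib 3.10.9. The members, gene lists and rules were chosen with earlier results of these data known. All members were accounted for; values by sample were given for the 4 largest and 4 smallest differences in each of 4 comparisons and for 7 central regulators, and up to 3 genes per direction were named from each wider list. Promoters were printed where the CHR letters lay in the 170 bases before to 30 after the start, which left out Plk1 and Cdca3, whose letters began 31 bases past it. Alternatives were other scalings, no dim genes (mean under 4), a 2-fold minimum, the mean of all probe sets, single date marks, blocks and leaving out each sample.

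Same-numbered NSC cultures were checked for pairing through the correlation of their deviations from the region means. It was 0.324, 0.254 and 0.322 for IV ventricle with SVZ and 0.184, 0.341 and 0.175 for cerebellum with SVZ. For IV ventricle with cerebellum it was 0.377, -0.138 and -0.061. These values do not settle whether the numbers pair the samples. The main fits of the NSC regions used no pairing, and a replicate block was run only as an alternative.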

Additional observations from a re-analysis of the deposited data

Results flagged for a closer look

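In 76 group ranges tested for a sample standing far from the rest, 2 passed the limit for 8 samples. Chance gives about 1 in 20, a rate that 2 of 76 did not exceed. Both lay in line 49. Ccnb2, the gene of cyclin B2, was 6.49 there and 8.02 in the nearest line, a gap of 0.702 of the whole range of the 8 lines. The cytokinesis gene Ect2 was 6.43 there and 7.15 in the nearest line, a gap of 0.649 of the range.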

How the results depend on the processing

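The lines against hindbrain NSC gave 1 gene higher and 1 lower, and this depended on the setting. No gene was higher (0) after quantile normalization, with a trended robust prior, with a 2-fold minimum, with only the arrays compared, with IV ventricle or cerebellar NSC alone as the reference, or with the lines of either date mark alone. The lower count was 0 with array median scaling, the 2-fold minimum, either NSC region alone or either date mark alone, and 2 after quantile normalization, without dim genes and with only the arrays compared. Leaving out 1 culture gave 0 to 1 higher and 0 to 2 lower. For the p53 heterozygous cultures the 2-fold minimum left 2 genes lower against hindbrain NSC and 3 against the lines, of 13 each. It left 5.24% and 4.52% of all genes lower. Leaving out 1 culture gave 2 to 20 lower and 0 to 1 higher with medians of -0.75 to -0.24 against hindbrain NSC, and 5 to 18 lower and 0 to 2 higher with medians of -0.72 to -0.07 against the lines. With the technical arrays kept and the tumour as a random block, 19 and 15 genes were lower, where 15.7% and 14.6% of all genes were called lower. The mean of all probe sets gave 1 gene higher in lines than in SVZ NSC, turned Nek2 to 0.03 from -0.41 between p53 heterozygous cultures and lines, and left 0 genes lower in lines than in tissue and 0 higher in tissue than in hindbrain NSC.

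Of 22 genes higher in lines than in tissue, 2 passed the 2-fold minimum, 11 were higher in the tumours of 1 date mark and 12 in those of 2, and 16 to 21 with 1 tumour left out. The shares of all genes called higher were 7.17%, 21.1%, 16.2% and 23.8% to 25.5%, in the same order. The 1 gene lower became 0 with the 2-fold minimum and in the tumours of 2 date marks, and 1 to 2 with 1 tumour left out (2 without tumour 83). Tissue against hindbrain NSC gave 0 higher and 3 lower with the 2-fold minimum, where 7.92% of all genes were called higher and 8.04% lower. The causes were not tested. Leaving the 2-fold minimum aside, the calls that kept an adjusted p under 0.05 in every alternative run were Cenpf and Mki67 (p53 heterozygous cultures against hindbrain NSC), these with Cenpe, Kif11 and Prc1 (against the lines), Birc5, Cdca8, Hmmr, Kif4, Plk1 and Prc1 (lines against tissue), and 13 of 20 between tissue and hindbrain NSC. With the replicate block, 0 mitosis genes were called between the NSC regions, as without it, and over all genes it gave 0 calls between IV ventricle and cerebellum, 86 higher and 110 lower between IV ventricle and SVZ, and 139 higher and 141 lower between cerebellum and SVZ. Arrays of few samples, and only 2 p53 heterozygous tumours, limit all of these values.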

Other observations

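Other probe sets of a gene did not always follow the one used. For Anln the dimmer probe set gave 1.06 between lines and tissue, where the one used gave 0.34. For Cenpa the next probe set put tumour B 0.26 above the lines, where the one used gave 0.88. Cenpf was lower in both tumours in all 3 of its probe sets, by 0.99 to 1.47 in tumour 27 and by 1.05 to 1.51 in tumour B. In Hmmr 4 of 5 probe sets gave 1.03 to 1.17 between lines and tissue and the dimmest gave 0.32.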
